A study of Caenorhabditis elegans with 3 samples.

Results

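The bus and srf genes of the nematode Caenorhabditis elegans are named after mutants with an altered response to a surface-adhering bacterium or an altered surface staining. From the 20392 genes of the deposited table, 7 protein-coding genes were selected by sequence name as surface coat glycosylation genes. They were bus-1 (R03H4.6), bus-2 (K08D12.5), bus-8B (T23F2.1, entered as bus-8), bus-12 (JC8.12), bus-17 (ZK678.8), srf-3 (M02B1.1) and T22B2.1. The last of these had been entered as bus-4, but both naming tables used here give bus-4 as T22B11.2 and give T22B2.1 no gene symbol. T22B2.1 is therefore called by its sequence name, and bus-4 is described beside the 7 selected genes. The 7 were chosen because the bus genes among them had been seen to be highest in replicate 1, so their differences between libraries are a description and carry no test.

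RNA was measured in whole animals of the wildtype N2 Bristol strain in the fourth larval stage (mid-L4). The worms were fed OP50 at 25 °C, harvested after 29 h and not treated. The series had 1 group of 3 libraries, which the submitters call independent replicates, and no mutant, treatment or second stage. The values were TPM, an abundance scaled by transcript length within a library, so levels of different genes can be compared, but the read depth behind them is unknown. Pearson's r of log2(TPM + 1) across genes lay between 0.956 and 0.981 for the 3 pairs of libraries, and was lowest for replicates 1 and 3. In whole animals, fewer cells of a type and less RNA per cell cannot be told apart.

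The nematode cuticle is covered by a coat rich in glycoproteins, which is made by epidermal cells and shed with the cuticle at each molt. Nucleotide sugar transporters bring activated sugars into the secretory pathway, glycosyltransferases join these sugars to proteins and lipids there, and acyltransferases modify lipids or other molecules. Mutants of bus genes were found because the pathogen Microbacterium nematophilum no longer makes their tail swell, and mutants of several of them have a fragile or slippery cuticle. Reporter studies placed srf-3 and several bus genes mainly in the seam cells of the lateral epidermis, and bus-1 in rectal epithelial cells.

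The selected transporter genes were the most abundant of the set and varied to very different degrees. srf-3, which encodes a transporter of UDP-galactose and UDP-N-acetylglucosamine, lies on chromosome IV from 12849510 to 12854408 (WBcel235, plus strand). Its level was 21.1, 19.9 and 18.7 TPM in replicates 1, 2 and 3, a mean of 19.9 ± 1.21 TPM (SD, n = 3). Its coefficient of variation of 6.07% was below the median of 13.2% over the 13530 genes averaging 1 TPM or more. bus-12, which encodes a predicted nucleotide sugar transporter, lies on chromosome IV from 13256186 to 13259076 (plus strand). Its level was 12.46, 7.44 and 2.95 TPM in replicates 1, 2 and 3, a mean of 7.62 ± 4.76 TPM (SD, n = 3). Replicate 1 was 4.22 times replicate 3 for bus-12, against 1.13 times for srf-3. The ratio of bus-12 to srf-3 within a library was 0.591, 0.374 and 0.158 in replicates 1, 2 and 3, so srf-3 was the higher of these transporter genes in each library.

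Among the glycosyltransferase genes, bus-8B stood apart from bus-2 and bus-17. bus-8 encodes a predicted mannosyltransferase that is needed in the epidermis for viability and cuticle integrity. bus-8B lies on the X chromosome from 5493332 to 5496050 (plus strand). It had 9.17, 4.996 and 1.91 TPM in replicates 1, 2 and 3, a mean of 5.36 ± 3.64 TPM (SD, n = 3) and a 4.79-fold ratio of replicate 1 to replicate 3. The annotation places bus-8A on the same strand across the start of bus-8B, and T23F2.2 overlaps it on the opposite strand. The bus-8A transcript was not analysed here, so reads of bus-8A and bus-8B may not have been separated. T23F2.2 had 4.61, 3.88 and 4.37 TPM and did not share the low value of replicate 3.

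bus-17, a predicted glycosyltransferase gene on X from 15757808 to 15766354 (minus strand), had 3.53, 3.003 and 2.17 TPM in replicates 1, 2 and 3 and a mean of 2.90 ± 0.686 TPM (SD, n = 3). bus-2, a predicted galactosyltransferase gene on chromosome IV from 1699899 to 1702856 (plus strand), had 2.48, 2.18 and 1.36 TPM and a mean of 2.01 ± 0.582 TPM (SD, n = 3). Replicate 1 was 1.63 times replicate 3 for bus-17 and 1.83 times for bus-2, so both varied less than bus-8B. The ratio of bus-8B to bus-17 was 2.60, 1.66 and 0.882 in replicates 1, 2 and 3, and bus-17 was thus the higher of the pair in replicate 3 alone.

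bus-1 encodes a predicted membrane acyltransferase and lies on chromosome V from 9022317 to 9024813 (minus strand). It had 5.21, 3.63 and 1.54 TPM in replicates 1, 2 and 3, with a mean of 3.46 ± 1.84 TPM (SD, n = 3). Its 3.39-fold ratio of replicate 1 to replicate 3 lay between those of bus-2 and bus-12. T22B2.1, a protein-coding gene on X from 3926076 to 3929574 (plus strand), was listed at 0 in replicate 1, 0.00748 TPM in replicate 2 and 0.00676 TPM in replicate 3. It was essentially undetected in all libraries and is the selected gene that was not highest in replicate 1. The annotated bus-4, a predicted galactosyltransferase gene on chromosome IV from 4688269 to 4691936 (plus strand), had 4.82, 3.21 and 0.867 TPM in replicates 1, 2 and 3, a mean of 2.97 ± 1.99 TPM (SD, n = 3) and a 5.57-fold ratio of replicate 1 to replicate 3.

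**Figure D1:**
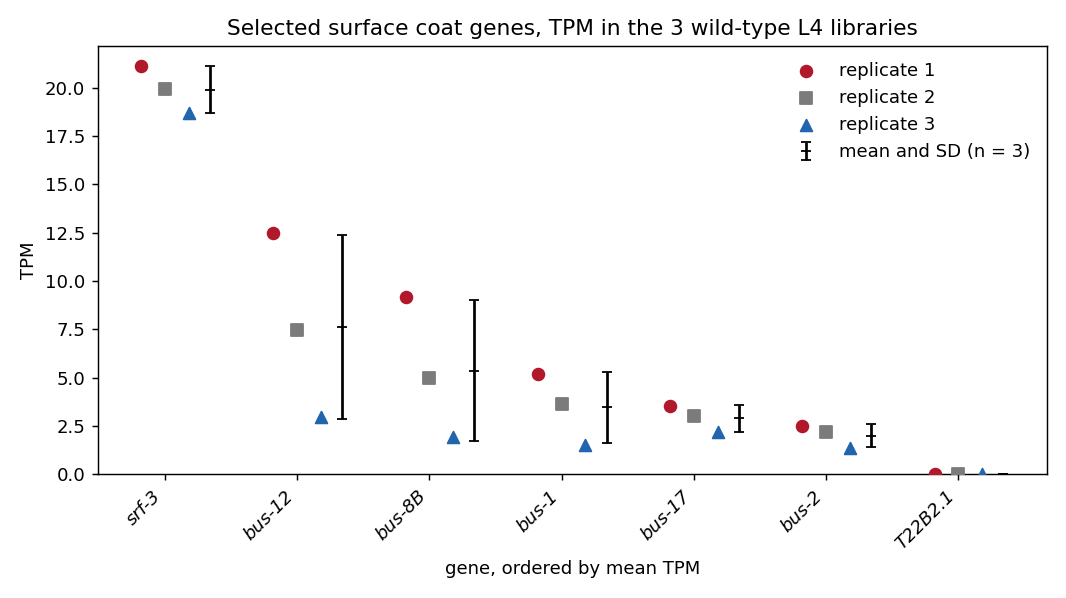
TPM of the 7 selected genes on a linear axis, with 1 point per library and the mean with its SD over the 3 libraries to the right of the points. The libraries lie close together for srf-3 (21.1, 19.9 and 18.7 TPM) and far apart for bus-12 (12.46, 7.44 and 2.95 TPM), and T22B2.1 lies at the axis.

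By mean level the order was srf-3, bus-12, bus-8B, bus-1, bus-4, bus-17, bus-2 and T22B2.1. srf-3 stood above bus-12 beyond the spread, since its lowest library (18.7 TPM) exceeded the highest of bus-12 (12.46 TPM). Each further pair of neighbours down to bus-17 and bus-2 had overlapping ranges over the 3 libraries. Within libraries the order was firmer: bus-12 exceeded bus-8B, bus-8B exceeded bus-1, bus-1 exceeded bus-4 and bus-17 exceeded bus-2 in 3 of 3 libraries, and bus-4 exceeded bus-17 in 2 of 3. For bus-17 and bus-2 the difference of their means (0.892 TPM) was larger than their pooled SD (0.636 TPM), and for the other overlapping pairs it was smaller. T22B2.1 lay below the range of bus-2. The order over all 8 genes was not the same in every library: bus-17 was the sixth of the 8 genes in replicates 1 and 2 and the third in replicate 3, while bus-4 was the fifth in replicates 1 and 2 and the seventh in replicate 3. Against all 20392 genes, the mean of srf-3 stood at percentile 82.6, bus-12 at 64.4, bus-8B at 57.4, bus-1 at 49.9, bus-17 at 47.2, bus-2 at 42.05 and T22B2.1 at 6.31. Summed over the 7 selected genes the level was 53.9, 41.2 and 28.6 TPM in replicates 1, 2 and 3, of which srf-3 made up 39.1%, 48.4% and 65.3%.

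Of the 7 selected genes, 6 reached a mean of 1 TPM, and these 6 also had at least 1 TPM in each library. So did 12454 genes, which are 61.1% of all 20392 genes and most of the 13530 genes averaging 1 TPM or more. All 6 were highest in replicate 1, as were 40.9% of the 13530 genes averaging 1 TPM or more. All 6 were also lowest in replicate 3, and 29.2% of the 13530 genes were highest in replicate 1 and lowest in replicate 3. Of the same 13530 genes, 19.6% were highest in replicate 2 and 39.5% in replicate 3. The selection used these values, so nothing is read from the counts. For bus-1, bus-8B and bus-12 (3 of 6), replicate 1 was at least 2-fold above replicate 3, which was the case for 12.4% of the 13530 genes. Among the 8310 genes averaging 2 to 20 TPM, the range of levels of the selected genes other than T22B2.1, the shares were 38.7% highest in replicate 1, 26.5% also lowest in replicate 3 and 11.9% at least 2-fold above replicate 3. The median difference in log2(TPM + 1) over the 6 genes was 0.30 for replicate 1 minus 2, 0.93 for replicate 1 minus 3 and 0.65 for replicate 2 minus 3. Over the 13530 genes the same medians were 0.02, -0.01 and -0.01. Adding 1 to TPM shrinks differences of genes at these low levels, which is why the ratios of TPM are given above.

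Some of the selected genes had close shapes across the libraries, and others did not. Shape was compared as the root mean square distance between log2(TPM + 1) values after subtracting each gene's mean over the 3 libraries. The values were not scaled, so genes with the same order of libraries lie apart where their differences vary in size. The distance was 0.04 between bus-8B and bus-12 and also 0.04 between bus-2 and bus-17, while bus-8B and srf-3 were 0.67 apart. Among the selected genes averaging 1 TPM or more, the nearest to bus-1 was bus-12 (0.19) and the nearest to srf-3 was bus-17 (0.15). bus-4 lay 0.08 from bus-12 and 0.45 from bus-2, the other predicted galactosyltransferase gene. Some genes of the same role were close, as the predicted glycosyltransferase genes bus-2 and bus-17 were, and others far apart: the transporter genes bus-12 and srf-3 were 0.66 apart, and the transferase genes bus-8B and bus-17 were 0.53 apart.

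The naming tables hold 14 genes with a bus symbol that were measured, and 9 of them were not among the selected genes. Of these 9, 8 had a mean of 1 TPM or more, and all 8 were highest in replicate 1 and lowest in replicate 3, beside 29.2% of the 13530 genes. bus-24 varied most, with 21.1, 10.2 and 3.53 TPM in replicates 1, 2 and 3 and a mean of 11.6 ± 8.86 TPM (SD, n = 3). bus-5, which encodes an enzyme of dTDP-rhamnose synthesis, had 15.8, 7.38 and 2.79 TPM and a mean of 8.66 ± 6.60 TPM (SD, n = 3). bus-10 had 5.64, 3.06 and 0.999 TPM, a 5.65-fold ratio of replicate 1 to replicate 3, close to the 5.66-fold of bus-5 and the 5.97-fold of bus-24.

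The remaining bus genes differed less between libraries. bus-18, which encodes an acyltransferase of phospholipid metabolism, had 6.41, 6.21 and 2.998 TPM in replicates 1, 2 and 3, so replicates 1 and 2 were nearly alike and replicate 3 was low. With library totals computed without the 100 most abundant genes, bus-18 was no longer highest in replicate 1 (14.29 rescaled TPM in both replicates 1 and 2), and the count for the bus genes became 12 of 13. bus-19 had 4.31, 2.65 and 2.005 TPM, and bus-22 had 3.23, 2.22 and 1.52 TPM. bus-6 had 9.83, 8.53 and 7.15 TPM, the smallest ratio of replicate 1 to replicate 3 (1.38-fold) among the 13 bus genes with a mean of 1 TPM or more. bus-28, at 0.608, 0.471 and 0.617 TPM, was the only bus gene with a mean below 1 TPM and did not share the pattern. In all, replicate 1 was at least 2-fold above replicate 3 in 10 of the 13, 7 of them outside the selected genes, beside 12.4% of the 13530 genes. The genes of this family were found in related mutant screens, and the selection and this count were both made with results of these data known, so the count is no independent support.

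**Figure D2:**
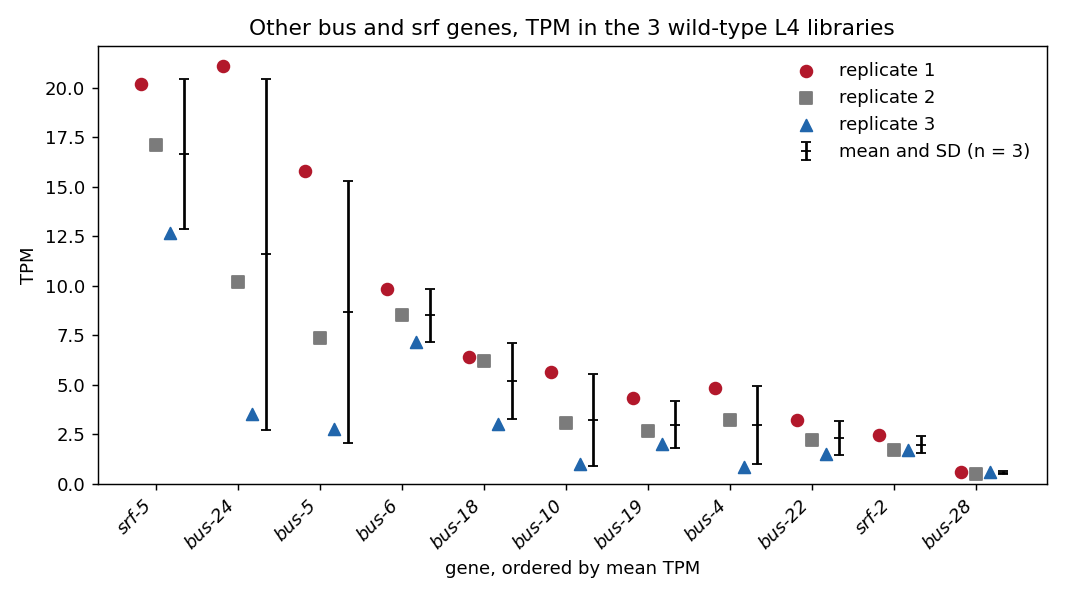
TPM of the bus and srf genes outside the selected set on a linear axis, with 1 point per library and the mean with its SD over the 3 libraries to the right of the points. bus-24 (21.1, 10.2 and 3.53 TPM) and bus-5 (15.8, 7.38 and 2.79 TPM) have widely spaced libraries, and bus-6 (9.83, 8.53 and 7.15 TPM) narrowly spaced ones.

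The srf genes carried smaller differences. srf-5 had 20.2, 17.1 and 12.6 TPM in replicates 1, 2 and 3, a mean of 16.7 ± 3.80 TPM (SD, n = 3), and srf-2 had 2.46, 1.71 and 1.73 TPM. Together with srf-3, all 3 measured srf genes were highest in replicate 1, beside 40.9% of the 13530 genes, and none reached a 2-fold ratio of replicate 1 to replicate 3. Their median difference for replicate 1 minus 3 was 0.35 in log2(TPM + 1), against 1.29 for the 13 bus genes with a mean of 1 TPM or more.

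**Figure D3:**
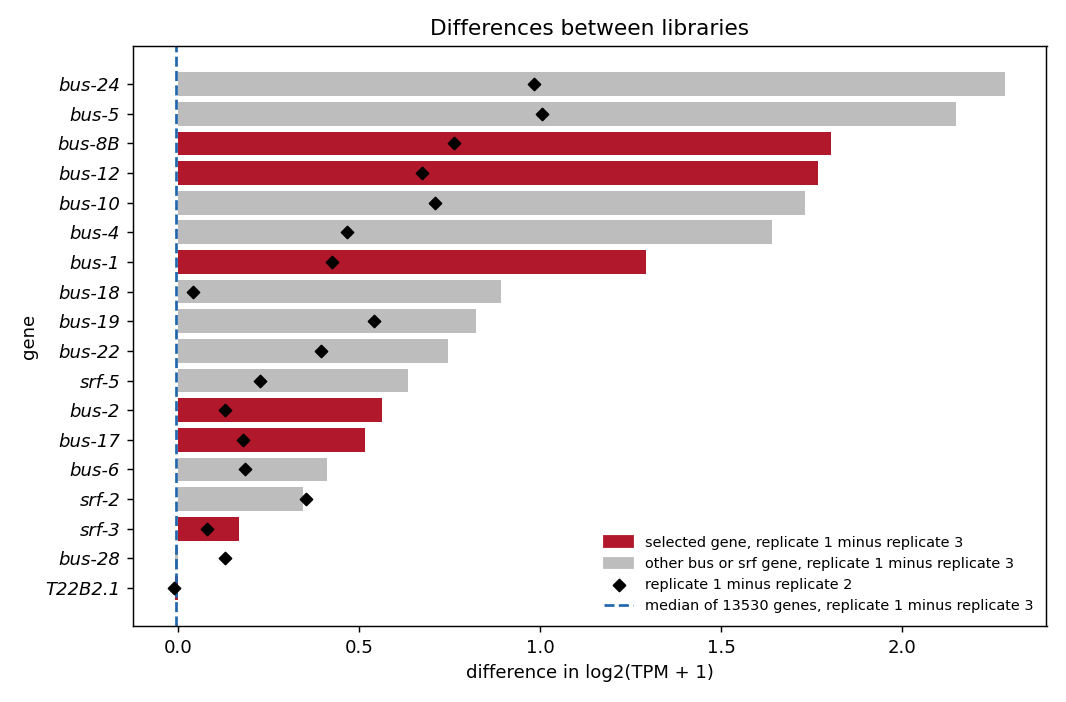
Difference in log2(TPM + 1) for each bus and srf gene and for T22B2.1, with bars for replicate 1 minus replicate 3 and diamonds for replicate 1 minus replicate 2. The dashed line is the median of 13530 genes for replicate 1 minus replicate 3 (-0.01). bus-24, bus-5, bus-8B and bus-12 have the longest bars, while the bars of T22B2.1 and bus-28 end at the line.

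**Figure D4:**
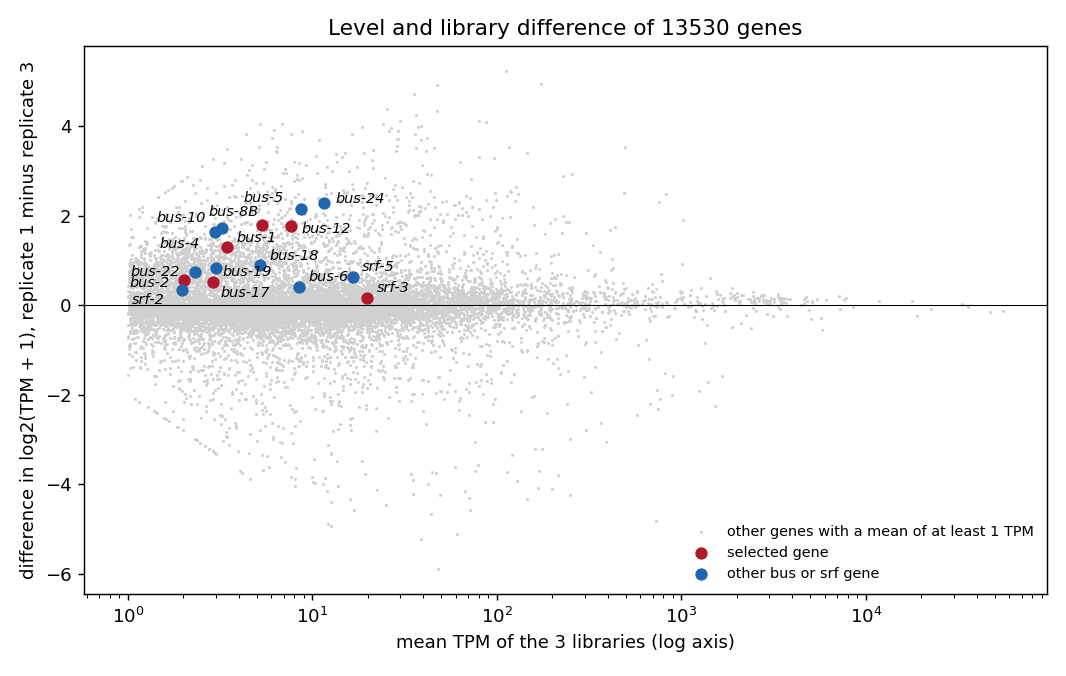
Mean TPM on a log axis against the difference in log2(TPM + 1) for replicate 1 minus replicate 3, for the 13530 genes averaging 1 TPM or more. The bus and srf genes shown lie above 0 at means between 1.97 and 19.9 TPM, within the spread of the other genes at those levels.

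Other genes of glycan synthesis did not share one pattern. Of 4 further genes of rhamnose synthesis, 3 were highest in replicate 1, beside 40.9% of the 13530 genes. rml-3 had 114, 66.7 and 27.7 TPM, rml-5 had 515, 432 and 296 TPM, and rml-4 had 55.9, 44.5 and 30.8 TPM in replicates 1, 2 and 3, while rml-1 had 52.2, 54.05 and 52.8 TPM. Among the gly genes, which encode polypeptide N-acetylgalactosaminyltransferases and N-acetylglucosaminyltransferases, 16 of 21 had a mean of 1 TPM or more and 14 of the 16 were highest in replicate 1, beside 40.9% of the 13530 genes. Their differences were smaller than those of the bus genes, with a median of 0.30 for replicate 1 minus 3 and 3 of 16 at least 2-fold higher in replicate 1 than in replicate 3. gly-8, the most abundant of them, had 182, 135 and 83.8 TPM, gly-7 had 35.9, 29.0 and 23.98 TPM and gly-5 had 28.6, 23.6 and 25.3 TPM, and gly-17 was listed at 0 in all libraries.

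The other nucleotide sugar transporter genes differed among themselves. Of 12 such genes, 9 had a mean of 1 TPM or more and 4 of these were highest in replicate 1, close to the share of all genes, and the median difference for replicate 1 minus 3 was 0.21. nstp-3 was close to bus-12 in level and in its differences, with 11.4, 6.99 and 2.85 TPM in replicates 1, 2 and 3 and a 4.01-fold ratio of replicate 1 to replicate 3. nstp-9, with a mean below 1 TPM, had 1.51, 0.819 and 0.264 TPM. The most abundant of these genes differed less or in another direction: nstp-4 had 66.3, 71.4 and 57.1 TPM and nstp-2 had 36.99, 44.2 and 52.1 TPM in replicates 1, 2 and 3. hut-1 was highest in replicate 1 with 41.4, 32.4 and 26.1 TPM, and nstp-7 was lowest with a mean of 0.0106 TPM. For N-glycan assembly, 10 of 18 genes were highest in replicate 1, beside 40.9% of the 13530 genes. Their median difference for replicate 1 minus 3 was 0.06. The oligosaccharyltransferase subunit genes dad-1 (202, 167 and 152 TPM), stt-3 (109, 101 and 89.7 TPM) and ribo-1 (93.7, 86.3 and 79.9 TPM) led this list, and algn-8 was lowest at 5.52 ± 0.293 TPM (SD, n = 3).

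Fucosyltransferase genes, the genes of glycosaminoglycan synthesis and the galt and bre genes were also near the background. Of these, 1 of 5 fucosyltransferase genes, 3 of 8 glycosaminoglycan genes and 3 of 6 galt and bre genes were highest in replicate 1. The share was 40.9% over the 13530 genes. The median differences of the lists were -0.05, 0.01 and 0.03 for replicate 1 minus 3. fut-3 had 11.0, 11.8 and 11.7 TPM in replicates 1, 2 and 3. sqv-4, which encodes UDP-glucose dehydrogenase, had 40.8, 33.7 and 26.0 TPM, and sqv-6 had 11.16, 12.1 and 10.9 TPM. bre-1, which makes an intermediate of GDP-fucose and is no galactosyltransferase, had 48.8, 41.0 and 37.99 TPM.

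Cuticle, molting and sperm genes mostly moved between the libraries in the same direction as the bus genes. Their counts stand beside 40.9% of the 13530 genes highest in replicate 1, and 29.2% that were also lowest in replicate 3. All 6 furrow collagen genes were highest in replicate 1 and lowest in replicate 3, with a summed level of 1050.5, 645 and 216 TPM in replicates 1, 2 and 3 and a median difference of 2.17 for replicate 1 minus 3. Of 15 molting genes, 13 were highest in replicate 1, with a summed level of 1108, 757 and 351 TPM and a median difference of 1.57. noah-1, noah-2 and mlt-8 were the most abundant molting genes, and noah-1 had 355, 243 and 89.0 TPM. The exceptions were fbn-1 (43.9, 63.7 and 54.2 TPM) and mlt-7 (3.20, 4.62 and 13.9 TPM). Of 6 adult cuticle genes, 4 had a mean of 1 TPM or more and all 4 were highest in replicate 1, at a summed level over the 6 of 572, 160 and 21.0 TPM, while col-19 averaged 0.0255 TPM. All 29 major sperm protein genes with a mean of 1 TPM or more were highest in replicate 1, at a summed level over 31 genes of 2209, 864 and 500.2 TPM. The lists differ in level, with a median of 3.46 TPM for the bus genes, 14.3 TPM for the molting genes and 122 TPM for the furrow collagens. Adding 1 to TPM shrinks the differences of the bus genes most, so these medians do not rank the lists by ratio. The part of these genes, or of what moves them, in the differences of the bus genes was not tested.

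Markers of seam cells did not move with the bus genes as a group. Of 12 seam cell genes, 9 had a mean of 1 TPM or more and 2 of the 9 were highest in replicate 1, beside 40.9% of the 13530 genes. The median difference of the 9 for replicate 1 minus 3 was -0.25. The summed level of the 12 was 196, 193 and 207 TPM in replicates 1, 2 and 3, much of it from grd-3 (88.7, 109 and 105 TPM) and grd-10. Single seam cell genes went in opposite directions, with 57.0, 17.6 and 2.92 TPM for the hedgehog-related gene wrt-2 and 36.8, 52.0 and 84.4 TPM for grd-10. Of the GATA factor genes, elt-6 (2.92, 3.01 and 2.77 TPM) varied little. elt-1 (3.04, 1.95 and 2.69 TPM) was highest in replicate 1 and lowest in replicate 2. nhr-74 (1.93, 2.33 and 0.782 TPM) was lowest in replicate 3, and the lowest seam cell gene was ceh-16 at 0.323 ± 0.220 TPM (SD, n = 3).

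Of 5 genes of rectal cells, egl-38 alone had a mean of 1 TPM or more (2.92, 2.02 and 2.03 TPM), and it alone was highest in replicate 1. The others were highest in replicate 3 at low levels. mab-9 had 0.914, 0.723 and 1.22 TPM, egl-5 had 0.490, 0.940 and 1.09 TPM, ceh-6 had 0.557, 0.503 and 0.722 TPM and lin-48 had 0.238, 0.284 and 0.627 TPM. The 5 summed to 5.12, 4.47 and 5.69 TPM, with lin-48 lowest at 0.383 ± 0.213 TPM (SD, n = 3), while bus-1 had 5.21, 3.63 and 1.54 TPM. Among 6 epidermal genes, 5 had a mean of 1 TPM or more and 3 of these were highest in replicate 1, beside 40.9% of the 13530 genes. The median difference of the 5 for replicate 1 minus 3 was 0.59, but the genes went in both directions. The 6 summed to 210.02, 181 and 149 TPM in replicates 1, 2 and 3. che-14 had 4.74, 2.47 and 1.05 TPM, a 4.50-fold ratio of replicate 1 to replicate 3. dpy-7, which is also in the furrow collagen list, had 121, 90.8 and 40.6 TPM and lin-26 had 18.9, 14.7 and 12.3 TPM. The remaining epidermal genes were highest in replicate 3. vab-10 had 56.8, 64.3 and 84.4 TPM, elt-3 had 8.04, 8.83 and 10.1 TPM and nhr-25 had 0.193, 0.322 and 0.695 TPM. The part of epidermal RNA in the differences of the bus genes was not tested. The 5 muscle genes summed to 3109, 3109 and 3154 TPM and the 5 intestinal genes to 2932, 2698 and 2658 TPM. These sums differed less between libraries than that of the 14 bus genes (104.6, 65.2 and 32.4 TPM). Of the muscle genes, 4 of 5 were highest in replicate 1, beside 40.9% of the 13530 genes, but by little. Their median difference for replicate 1 minus 3 was 0.05. The count was 3 with median-of-ratios rescaling and 2 with totals computed without the 100 most abundant genes. pat-10 (1449, 1487 and 1557 TPM) was highest in replicate 3. Some single intestinal genes differed more than their sum, and they went in both directions. Of the 5, 2 were highest in replicate 1, beside 40.9% of the 13530 genes. These were asp-1 (2059, 1793 and 1694 TPM), the most abundant of the list, and act-5 (682, 662 and 674 TPM), which varied little. ifb-2 had 164, 213 and 263 TPM and elt-2 had 5.53, 6.89 and 8.47 TPM, both highest in replicate 3. No gene of the seam cell, rectal, epidermal, muscle or intestinal lists was at 0 in all libraries.

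**Figure D5:**
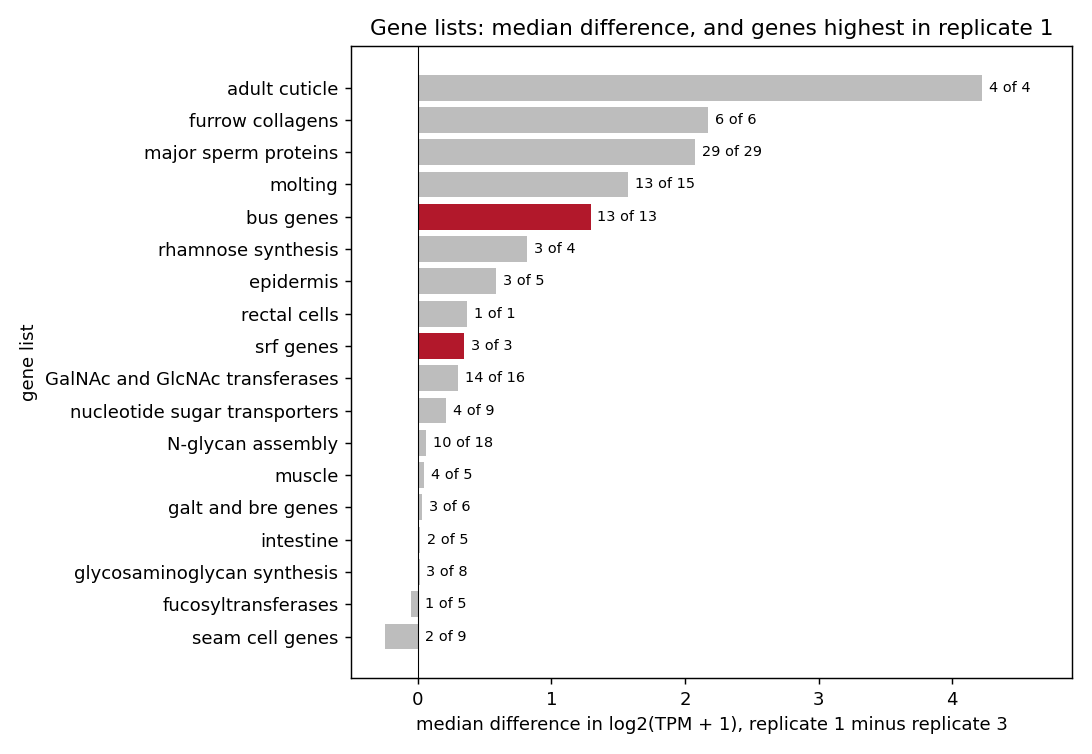
Median difference in log2(TPM + 1) for replicate 1 minus replicate 3 in each gene list, over genes with a mean of 1 TPM or more, with the number of genes highest in replicate 1 beside each bar. The bus genes (1.29) lie below the molting genes (1.57) and furrow collagens (2.17), and the srf genes (0.35) lie near the GalNAc and GlcNAc transferases (0.30). Adding 1 to TPM shrinks differences more at low levels, so the bars do not rank the lists by ratio. The bar of the rectal cell genes rests on egl-38 alone. Of the 13530 genes averaging 1 TPM or more, 40.9% were highest in replicate 1.

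The genes with the shape nearest to the mean shape of the 7 selected genes were sought among 6091 other genes averaging 10 TPM or more. In order, the nearest were F28H7.3 (distance 0.01), rml-4 (0.01), T24B8.4 (0.02), C14H10.3 (0.02) and Y53G8AM.2 (0.02). The 10 nearest were completed by hum-6 (0.02), sec-61.A (0.02), F36A2.12 (0.02), T05E7.1 (0.03) and lrp-1 (0.03). A shared role of the 10 was not tested. rml-4 belongs to the rhamnose genes described above, and lrp-1 encodes a large lipoprotein receptor-related protein of the epidermis that is needed for molting. sec-61.A encodes a subunit of the channel through which secreted proteins enter the endoplasmic reticulum, with 205, 164 and 116 TPM in replicates 1, 2 and 3.

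Each selected gene also had its own nearest gene. It was hhat-1 for bus-8B (22.8, 13.3 and 5.99 TPM, distance 0.01), T19B10.2 for bus-12 (251, 156 and 72.0 TPM, distance 0.01) and the matrix metalloprotease gene zmp-2 for bus-1 (24.7, 18.5 and 9.53 TPM, distance 0.01). Those of bus-17 and bus-2 were the aldehyde dehydrogenase gene alh-1 (223, 199 and 157 TPM) and Y73C8B.3 (21.5, 19.8 and 14.3 TPM), and that of srf-3 was immt-2 (22.1, 20.8 and 19.5 TPM). For T22B2.1, which hardly varied on this scale, it was the prefoldin gene pfd-3. With 3 libraries a shape has few degrees of freedom, so many genes lie close to any of them and the distances describe these libraries only.

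The selected genes lie apart on chromosomes IV, V and X, and their neighbours did not share their pattern as a rule. The protein-coding genes on either side of the 7 numbered 14, of which 10 had a mean of 1 TPM or more and 4 of the 10 were highest in replicate 1, beside 40.9% of the 13530 genes. nstp-5, another nucleotide sugar transporter gene, lies 1139 bp beyond srf-3 on the same strand and had 15.7, 19.9 and 19.97 TPM in replicates 1, 2 and 3. oac-41, named as an O-acyltransferase homologue, lies 138 bp from bus-1 on the same strand and was at or below 0.0191 TPM in every library. JC8.16, which follows bus-12 after 95 bp on the same strand, had 2.46, 1.49 and 0.993 TPM. wrt-4, a hedgehog-related gene 538 bp from bus-17 on the same strand, had 7.24, 2.36 and 0.307 TPM and differed more between libraries than bus-17.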

How the data were processed

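Trizol-extracted, DNase-treated RNA was depleted of ribosomal RNA (Ribo-Zero Gold) and made into TruSeq stranded total RNA libraries, per the labels' protocols. The submitters' processing notes name kallisto, and its version, index, build and summing of transcripts to genes are not given in the sources used here. TPM per gene was deposited by the authors for each library, each summing to 1000000, and a mean TPM that equalled the mean of the 3 columns. Read depth, and therefore counting error, is unknown.

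From these values, log2(TPM + 1) differences, mean, SD and shape distances were computed with Python 3.11.15, numpy 2.4.6 and pandas 2.3.3. The search for nearest shapes and the call of genes highest in replicate 1 were checked on simulated data. Of 20392 sequence names, 20135 matched Ensembl release 115 (WBcel235). Symbols came from RefSeq, then Ensembl, and the authors' annotation may differ. With 1 group no test between conditions exists, and none was made. Libraries are independent per the submitters, but the labels do not name separate cultures.

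The members and lists were chosen with earlier results of these data known. The text names the selected genes, bus and srf genes, a selection of the highest and lowest of each list, nearest genes and annotated neighbours. Exceptions named after their values were seen are nstp-3, nstp-9, che-14, elt-3, fbn-1, mlt-7, elt-1, elt-6, egl-18, lin-22, bro-1, nhr-74, ceh-6 and T23F2.2. Alternatives were other scalings, pseudocounts of 0.1 and 5, filters of 5 and 10 TPM and leaving out each replicate. Protein identity and promoter motifs were planned but not computed, and sequences were not used here.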

Additional observations from a re-analysis of the deposited data

How the results depend on the processing

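Of the 7 selected genes, 6 were highest in replicate 1 with median-of-ratios rescaling and with totals computed without the 100 most abundant genes. The count was also 6 without replicate 2 or 3, but that was fixed in advance. A gene highest in replicate 1 stays so when another library is dropped, and T22B2.1 was at 0 in replicate 1. With T22B11.2 in place of T22B2.1, an alternative chosen after seeing the data, the count was 7 of 7. Without replicate 1 that count has no value. The median difference for replicate 1 minus 3 over the 6 genes, 0.93, ranged between 0.45 (pseudocount 5) and 1.29 (T22B11.2 included), with 1.26 at a pseudocount of 0.1. The number of bus genes highest in replicate 1 was 6 of 6 with a filter of 5 TPM, because fewer genes pass, against 13 of 13 at 1 TPM. Rescaling without the 100 most abundant genes multiplied all levels by 2.23 to 2.30, which moved each mean by more than its SD, and shifted the median of all genes by less than 0.1 (-0.01 for replicate 1 minus 3). Without replicate 1, 2 or 3 the mean of bus-12 was 5.197, 7.71 and 9.95 TPM and that of bus-8B 3.45, 5.54 and 7.08 TPM. The share of all genes highest in replicate 1 lay between 38.7% and 41.3% in the other filters and scaling. No paired analysis was possible because the series has 1 group. TPM holds no depth, so the precision of low values such as those of T22B2.1 and bus-28 is unknown.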

Other observations

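T22B2.1 contributes an almost flat shape to the mean of the 7 selected genes. With the mean taken over the 6 genes of at least 1 TPM, an alternative chosen after seeing the data, the 10 nearest of the same 6091 genes included dpy-31 (35.2, 26.6 and 17.6 TPM in replicates 1, 2 and 3), which encodes an astacin metalloprotease of cuticle collagen processing. The nearest was T01D1.8 (distance 0.01). The last of the 10 was gly-8 (182, 135 and 83.8 TPM, distance 0.04) of the N-acetylgalactosaminyltransferase family. C29H12.2, spp-18, his-70, ant-1.3, Y38F1A.1 and atic-1 were also among the 10 and nearer than gly-8. T05E7.1 (22.9, 17.7 and 11.5 TPM) was among the 10 nearest under both means.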
